A study of Rattus norvegicus with 6 samples.

Results

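Catenins are the cytoplasmic proteins that join cadherins, the calcium-dependent adhesion receptors of the cell surface, to the actin skeleton. The tail of a classical cadherin binds beta-catenin or plakoglobin, either of which recruits an alpha-catenin that holds actin, while delta-catenins bind nearer the membrane and keep the cadherin at the surface. Beta-catenin also carries the canonical Wnt signal: a destruction complex built on APC and axin marks it for breakdown, and what escapes acts in the nucleus with TCF and LEF factors. N-cadherin and E-cadherin are both known from the anterior lobe of the pituitary.

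The genes described are Ctnna1, Ctnna2, Ctnnb1, Ctnnd1, Ctnnd2 and Jup on the catenin side and Cdh1, Cdh2, Cdh4 and Cdh13 on the cadherin side. All probe sets annotated to a single one of these symbols were taken, 17 of 31042 on the array. They cover 9 of the 10 genes, out of 14217 with such a probe set, and Cdh4 was not analysed here. The set was chosen by the log2 MAS5 signals of this same comparison: Ctnna2 was picked because its signal fell, and its relatives were added with results of these arrays known. All values of the 17 probe sets are therefore given as a description and carry no p-values. Calls of members, defined below, belong to that description and are no test, because the members were chosen with these results known.

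The study used GH4C1 cells, a rat pituitary tumour line that makes growth hormone and prolactin and keeps its own Pou1f1. The cells were transduced with lentivirus at a multiplicity of infection of 5 and then grown for 4 days. In the R271W cultures the PGK promoter drove POU1F1(R271W), a mutant of this pituitary transcription factor given as dominant negative in the title of the series, followed by an IRES and EGFP. The design text gives EGFP alone behind the same promoter as the control vector, although the labels of the control samples name no vector. There were 3 R271W cultures and 3 control cultures, called biological replicates by the labels, and each was read on 1 Affymetrix array. With 3 arrays a group, precision is limited by their number.

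Signals are MAS5 values on a linear scale, 1 per probe set. A log2 change is the mean log2 signal of R271W arrays minus that of control arrays, with a 95% interval from limma. A probe set was tested if its mean log2 signal over the 6 arrays reached the 40th percentile, a signal of 11.2. It was called if its limma p, adjusted by Benjamini-Hochberg over all 18625 tested probe sets, was under 0.05. A probe set that was not called is not thereby shown to be unchanged. Of the 17 probe sets 10 were tested, from 7 genes. These 10 passed the filter over all arrays, and 7 dimmer ones did not.

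The sequences ahead of the listed transcription starts of Ctnna2 and Jup are shown because these are the genes of the set that were called, in opposite directions. They are 250 bases each, read 5′ to 3′ towards the start, from RefSeq's GRCr8 annotation, at chr4:112001352-112001601 (minus strand) for Ctnna2 and chr10:85827430-85827679 (minus strand) for Jup. Capitals mark the E-box CAGGTG or its complement CACCTG, the motif bound by Snail and Zeb repressors.
Ctnna2: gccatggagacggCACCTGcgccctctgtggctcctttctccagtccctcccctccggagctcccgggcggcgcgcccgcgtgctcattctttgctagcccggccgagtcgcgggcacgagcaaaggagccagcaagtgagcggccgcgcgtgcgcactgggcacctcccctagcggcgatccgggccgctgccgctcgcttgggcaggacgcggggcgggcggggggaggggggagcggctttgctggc
Jup: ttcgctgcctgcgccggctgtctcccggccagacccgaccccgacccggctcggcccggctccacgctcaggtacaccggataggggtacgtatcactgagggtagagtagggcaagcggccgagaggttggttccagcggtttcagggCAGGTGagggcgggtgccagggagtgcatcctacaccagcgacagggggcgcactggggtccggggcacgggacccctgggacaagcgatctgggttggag
The Ctnna2 window was 74.4% G or C and held 30 CpG dinucleotides, and the Jup window was 68.8% G or C with 21, against medians of 51.2% and 5 over 33465 rat windows of the same length. The E-box began 237 bases before the listed start of Ctnna2 and 101 bases before that of Jup. It was found in 15.9% of all windows on either strand. The POU1F1 consensus TATNCAT, also searched on both strands, was in neither window, nor in those of Ctnnb1, Ctnnd1 and Ctnnd2, and was found in 8.73% of all windows. The TCF/LEF consensus CTTTGAT was in none of these 5 windows either and in 3.15% of all. Windows of the other 4 measured genes were not analysed here. The listed starts of Jup, Ctnnb1 and Ctnnd1 lie inside the full annotated spans of these genes. Those of Ctnna2 and Ctnnd2 stand at the 5′ end of the span.

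Ctnna2, which encodes the alpha-catenin typical of neurons, stood apart from the rest of the set by the size of its difference. Its only probe set, 1375968_at, read 137, 104 and 157 on the R271W arrays, against 417, 376 and 391 on the control arrays. The 3 R271W signals lay far below the 3 control signals, and the lowest was that of R271W replicate 2. The means were 133 ± 26.8 in R271W cells and 395 ± 21.0 in control cells (SD, n = 3 each), a log2 change of -1.59 (95% interval -1.89 to -1.30), or a 3.02-fold lower signal in R271W cells. It was called lower, as were 7.22% of all tested probe sets (15.8% were called in either direction). Over the 15 alternative settings tried, its log2 change ran from -1.79 to -1.43.

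Ctnna1 encodes the alpha-catenin of epithelia and most other tissues. The signals of its probe set, 1371921_at, were 1706, 1638 and 1684 on the R271W arrays and 1615, 1630.4 and 1544 on the control arrays. The R271W signals lay just above the control signals without overlap, and the log2 change was 0.07 (interval -0.07 to 0.21), which was not called. On the same arrays the log2 ratio of Ctnna2 to Ctnna1, with the control mean set to 0, was -1.62, -1.96 and -1.41 in R271W cells and 0.06, -0.10 and 0.04 in control cells. These groups did not overlap, and a constant that scales a whole array cancels in this ratio. Because Ctnna2 was chosen for its lower R271W signal, the separation of the ratio is a description and no test.

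**Figure D1:**
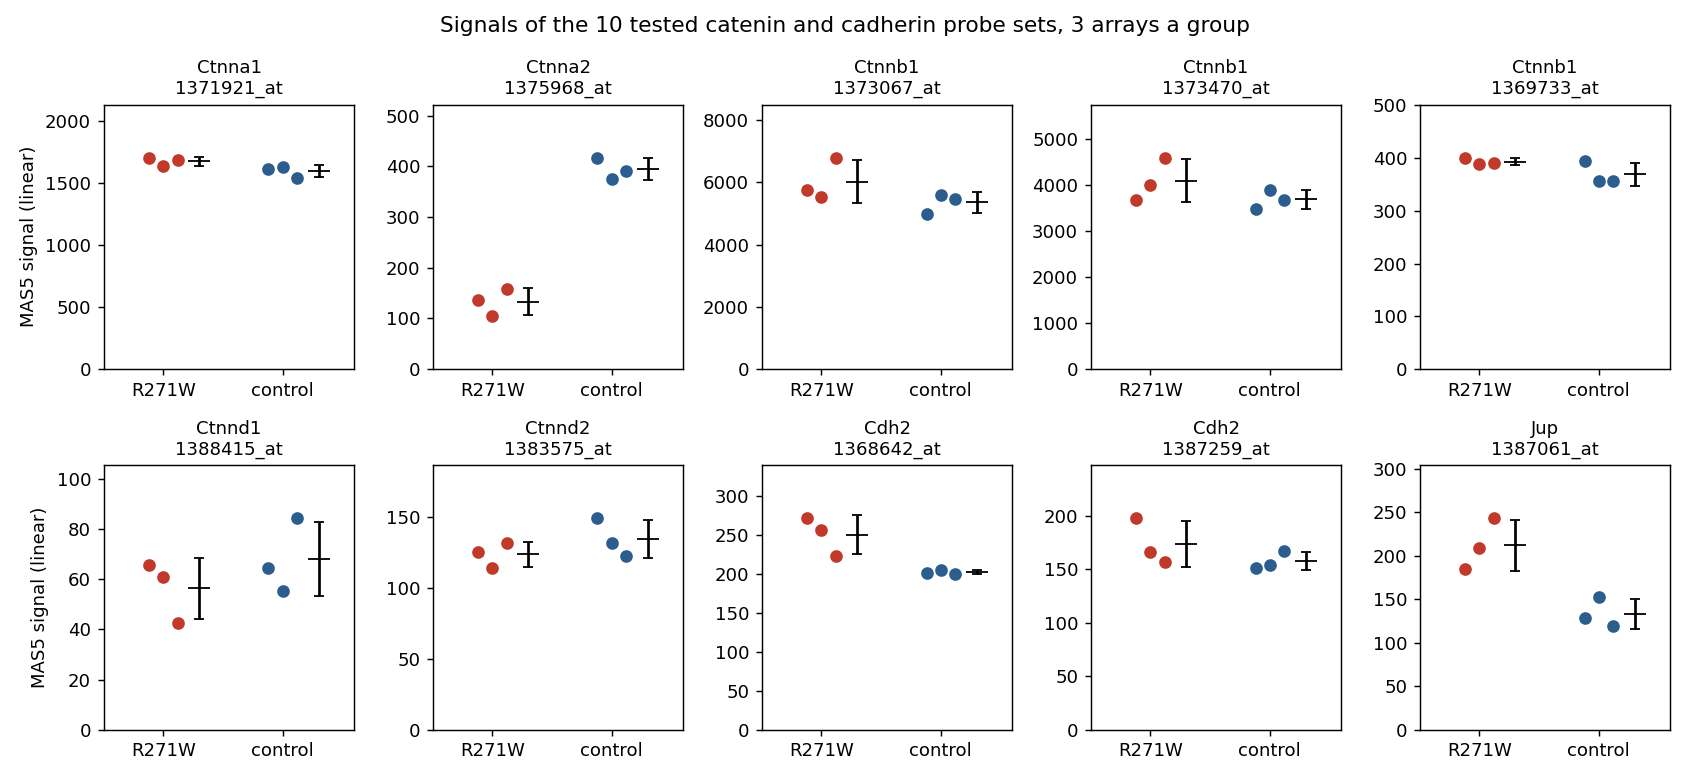
MAS5 signal on a linear axis from 0 for the 10 tested probe sets, with R271W arrays in red on the left and control arrays in blue on the right. Points are arrays and bars are means ± SD (n = 3); Ctnna2 lies near 133 in R271W cells and 395 in control cells, Jup near 212 and 133.

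Jup encodes plakoglobin, the close relative of beta-catenin that binds both classical and desmosomal cadherins. Its only probe set, 1387061_at, read 184, 209 and 243 on the R271W arrays and 128, 153 and 119 on the control arrays. Every R271W signal was above every control signal. The means were 212 ± 29.5 in R271W cells and 133 ± 17.4 in control cells (SD, n = 3 each), and the log2 change was 0.67 (interval 0.37 to 0.97). Jup was called higher, as were 8.57% of all tested probe sets. The call was lost when limma was fitted without its intensity trend, and the log2 change was 0.47, still called, when arrays were centred on their medians.

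Ctnnb1, which encodes beta-catenin itself, had 3 tested probe sets. The brightest, 1373067_at, read 5755, 5517 and 6802 on the R271W arrays and 4990.4, 5607 and 5472 on the control arrays, and the groups overlapped. Its log2 change was 0.17 (interval -0.01 to 0.34). The next, 1373470_at, read 3679, 4002 and 4604 on the R271W arrays and 3486, 3903 and 3689 on the control arrays, a log2 change of 0.14 (interval -0.03 to 0.32). The dimmest tested one, 1369733_at, read 401, 389 and 389.8 on the R271W arrays and 394, 357 and 356 on the control arrays, a log2 change of 0.09 (interval -0.10 to 0.28). The groups overlapped in all 3 and 0 were called. The brightest stands near the top of the scale, as the highest signal of any probe set was 7354 to 8832 on R271W arrays and 7782 to 8318 on control arrays. The log2 ratio of Jup to Ctnnb1 on the same array, with the control mean set to 0, was 0.37, 0.61 and 0.53 in R271W cells and 0.05, 0.14 and -0.19 in control cells, without overlap. The remaining Ctnnb1 probe set was below the filter.

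**Figure D2:**
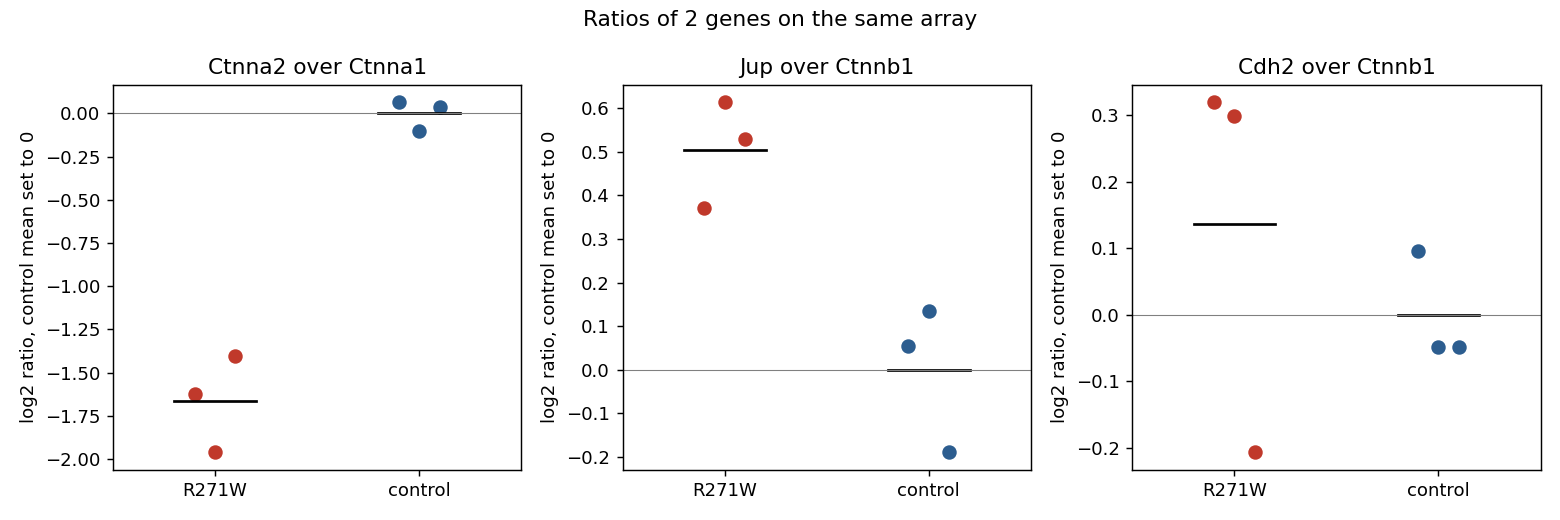
Log2 ratio of 2 signals on the same array, with the control mean set to 0, for Ctnna2 over Ctnna1, Jup over Ctnnb1 and Cdh2 over Ctnnb1; points are arrays (R271W red, left; control blue, right) and black lines are means. The Ctnna2 ratios average -1.66 and the Jup ratios 0.50 in R271W cells, outside the control points; in the Cdh2 panel the groups overlap.

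Neither delta-catenin gene was called. Ctnnd1 encodes the delta-catenin that stabilises cadherins at the surface of most cells, and read 65.8, 61.0 and 42.7 on the R271W arrays and 64.4, 55.4 and 84.4 on the control arrays. Its log2 change of -0.27 had an interval from -0.76 to 0.22. Ctnnd2, the delta-catenin typical of neurons, read 125, 114 and 131 on the R271W arrays and 149, 131 and 122 on the control arrays, a log2 change of -0.12 (interval -0.41 to 0.17). The groups overlapped in both genes.

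Among the cadherins, Cdh2, which encodes N-cadherin, was the only gene with tested probe sets. Its brighter probe set, 1368642_at, read 272, 257 and 223 on the R271W arrays and 202, 205 and 201 on the control arrays. The groups did not overlap, and the log2 change was 0.30 (interval 0.07 to 0.54), which was not called over all probe sets. It was called without R271W replicate 3 (log2 change 0.38), the lowest R271W array. The dimmer tested one, 1387259_at, read 198, 166 and 157 on the R271W arrays and 151, 154 and 167 on the control arrays, with overlap and a log2 change of 0.13 (interval -0.14 to 0.40). The log2 ratio of the brighter Cdh2 probe set to Ctnnb1 on the same array, with the control mean set to 0, was 0.32, 0.30 and -0.21 in R271W cells and 0.10, -0.05 and -0.05 in control cells, with overlap.

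The remaining cadherin probe sets were all below the filter. Cdh1 encodes E-cadherin, the cadherin of epithelia, and its 2 probe sets had signals between 0.154 and 3.43 on R271W arrays and between 0.467 and 7.42 on control arrays. Cdh13 encodes T-cadherin, which is anchored by a lipid and has no tail for catenins. Its 3 probe sets read between 0.467 and 8.98 on R271W arrays and between 0.666 and 5.28 on control arrays. Together with the dim probe sets of Ctnnb1 and Cdh2, the 7 untested probe sets spanned 0.154 to 12.97 over all arrays, and no fold is given for them. In 6 of these 7 the groups overlapped, and in the Cdh13 probe set 1375719_s_at the R271W signals (0.904, 0.602 and 0.742) were below the control signals (1.26, 2.99 and 1.85).

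Over the 10 tested probe sets 1 was called higher and 1 lower, and 8 were not called. Groups did not overlap for 4 of the 10, against 33.9% of all tested probe sets. R271W lay above control in 3, Ctnna1, Jup and 1 of Cdh2 (19.7% of all), and below it in 1, Ctnna2 (14.2% of all). The median log2 change was 0.11, against 0.07 over all 18625. Centring each array on its median lowers every log2 change by 0.20. Under that scaling the values of Ctnna1 and Ctnnb1, and of the dimmer Cdh2 probe set, turned below 0 (-0.13 for Ctnna1, -0.03, -0.05 and -0.10 for Ctnnb1, -0.06 for Cdh2), and none was called. Quantile normalization raised the log2 changes of Ctnna1 and Ctnnb1, lowered those of the other members, and called 4 probe sets higher: Jup, Ctnna1 (log2 change 0.20) and 2 of Ctnnb1 (0.18 and 0.20). Whether Ctnna1 and Ctnnb1 rose thus depends on the scaling.

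**Figure D3:**
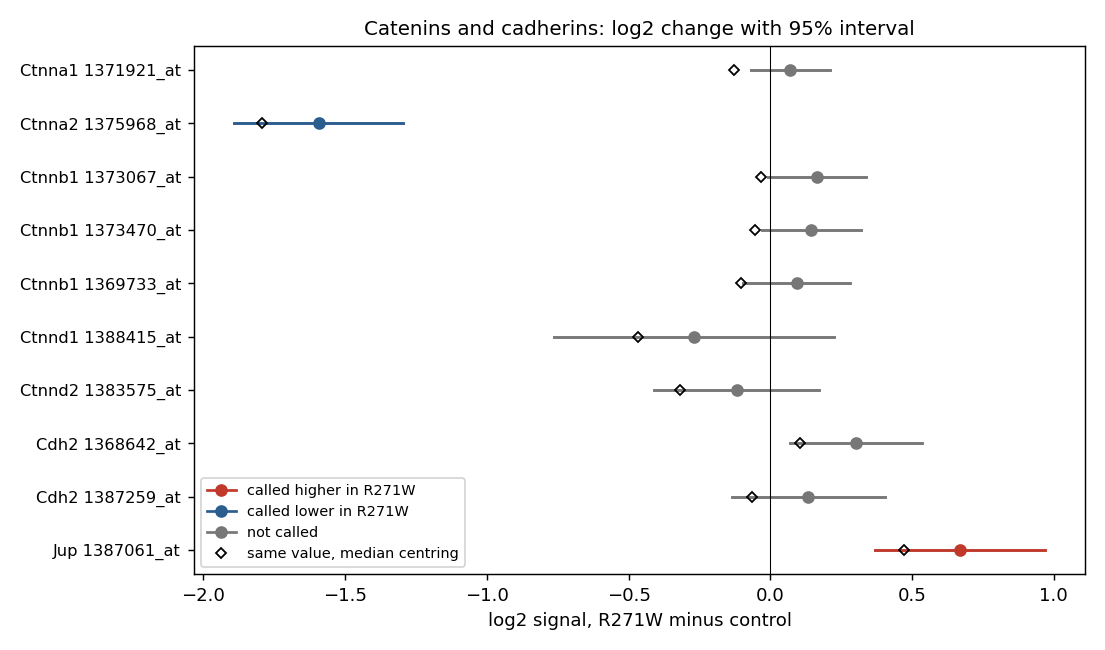
Log2 change, R271W minus control, of the 10 tested probe sets as points with 95% intervals, coloured by call, and the same value after median centring as open diamonds. The interval of Ctnna2 runs from -1.89 to -1.30 and that of Jup from 0.37 to 0.97; the diamonds lie 0.20 lower throughout.

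Some other measures moved with the groups on these arrays. The hybridisation spikes, bacterial and bacteriophage transcripts added to every sample after labelling, averaged 9.10 to 9.30 in log2 signal on R271W arrays and 8.80 to 9.01 on control arrays. The poly-A spikes, another spike set, averaged 4.49 to 4.77 on R271W arrays and 4.42 to 4.62 on control arrays, with overlap. For beta-actin, the signal at the 3′ end over that at the 5′ end was 1.86 to 2.06 on R271W arrays and 1.81 to 1.82 on control arrays, while the GAPDH ratio overlapped. Median signals were 25.5 to 26.9 on R271W arrays and 22.4 to 22.9 on control arrays. The part of these differences in the member values was not tested. Centred on array medians, the log2 change of Ctnna2 was -1.79.

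The identity of the cells was read from marker genes. Prl, Gh1, Pou1f1, Chga and Chgb, which mark hormone-making cells of this lineage, summed to signals of 15314 to 16965 on R271W arrays and 16468 to 17305 on control arrays. Within the sum, Prl (log2 change -0.45, limma adjusted p = 0.00048) and Pou1f1 (-0.33, adjusted p = 0.00486) fell, and Chgb rose (0.46, adjusted p = 0.000337). Whether the Pou1f1 probe set also reads the transduced POU1F1(R271W) transcript was not tested. Gh1 (-0.03, adjusted p = 0.853) and Chga (-0.18, adjusted p = 0.192) were not called. Median centring called Chga lower (-0.38, adjusted p = 0.00677) but not Gh1 (-0.23, adjusted p = 0.124). The 2 corticotroph, 1 thyrotroph and 3 folliculostellate markers were all below the filter, as were both leukocyte markers. Of 5 gonadotroph markers 3 were tested, and their list summed to 70.4 to 100.3 on R271W arrays and 68.2 to 98.3 on control arrays. Of 3 endothelial markers only the dim Tie1 passed the filter. Of 5 fibroblast markers only Dcn passed it (1205 in R271W cells and 2770.1 in control cells), and Col1a1, Col1a2, Col3a1 and Pdgfra did not. Dcn was called lower (log2 change -1.20, limma adjusted p = 2.12e-07). The dim Pdgfra read 2.56 to 4.88 on R271W arrays and 11.2 to 15.2 on control arrays. In the collagen genes the groups overlapped. Because Ctnna2 is a neural gene, 3 neuronal markers were read as well. Map2, a dendritic microtubule protein gene, rose (log2 change 0.88, limma adjusted p = 2.9e-05), and so did the neuronal tubulin gene Tubb3 (0.45, adjusted p = 0.0085). Under median centring the Tubb3 call was lost (0.25, adjusted p = 0.111) and that of Map2 was kept (0.68, adjusted p = 0.000139). The summed signal of the 3 was 1263 to 1465 on R271W arrays and 798 to 851 on control arrays, while Rbfox3, which marks mature neurons, was below the filter. The part of these markers in the Ctnna2 value was not tested. In a bulk culture, fewer cells with a transcript and less of it in each cell cannot be told apart.

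The genes that work beside catenins at junctions were read from a list of 29, of which 20 were tested at 1 probe set a gene. Of these 20 genes 4 rose and 0 fell, against 9.87% of all 10143 genes called higher and 8.98% called lower. The difference of these small counts from the background was not tested. The median log2 change was 0.10, against 0.06 over all genes. With arrays centred on their medians, 2 genes of the list were called higher and 2 lower (Ptprf and Actn1). Ctnnal1, which encodes alpha-catulin, a relative of the alpha-catenins, rose most of the 4. It read 129, 102 and 86.1 on the R271W arrays and 52.6, 62.6 and 47.4 on the control arrays, all R271W arrays being higher. The log2 change was 0.95 (SE 0.195, limma adjusted p = 0.00458). Vasp, which encodes a protein that promotes actin filament growth at junctions, read 275, 263 and 255 on the R271W arrays and 175, 172 and 183 on the control arrays (log2 change 0.58, adjusted p = 0.00178). These 2 calls were kept under all 15 alternatives.

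Lima1 encodes EPLIN, an actin-binding protein that links alpha-catenin to actin. It rose to 427, 439 and 353 on the R271W arrays, against 249, 293 and 317 on the control arrays (log2 change 0.51, adjusted p = 0.00894). Its other, dimmer probe set was not tested. Vcl encodes vinculin, which binds alpha-catenin under tension. Its brightest probe set read 268, 283 and 289 on the R271W arrays and 217, 225 and 193 on the control arrays (log2 change 0.41, adjusted p = 0.0167). A second Vcl probe set was also called higher (0.48, adjusted p = 0.0167), and another, dimmer, read -0.57 with overlapping groups (adjusted p = 0.489). In each of these brighter probe sets every R271W array was above every control array.

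The calls of Lima1 and Vcl depended on the settings. Under median centring the log2 changes were 0.31 for Lima1 (adjusted p = 0.0837) and 0.21 for Vcl (adjusted p = 0.208), while a fit with no intensity trend gave adjusted p of 0.1 and 0.0826. Vcl also was not called under 75th percentile centring (0.0552), without R271W replicate 2 (0.0574) or without control replicate 3 (0.0741). Over all 15 alternatives the adjusted p ran from 0.00292 to 0.1 for Lima1 and from 0.00997 to 0.208 for Vcl. The hybridisation spikes and median signals given above are higher on R271W arrays in the same direction as these 4 genes, and their part was not tested.

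The list of cadherin genes outside the set held 19, of which 13 had a probe set and 3 were tested. Cdh3, the P-cadherin gene, Cdh11, a mesenchymal cadherin gene, and Cdh15, the M-cadherin gene of muscle, had log2 changes of -0.12, -0.25 and 0.13. Their groups overlapped and 0 were called (adjusted p = 0.865, 0.768 and 0.846). Of 6 genes for repressors of cadherin transcription, only Zeb1 was tested. It read 29.8, 51.7 and 44.8 on the R271W arrays and 35.9, 43.6 and 43.4 on the control arrays, a log2 change of 0.01 (adjusted p = 0.989).

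Genes that control beta-catenin were read from a list of 27, with 23 tested. Among them 3 rose and 0 fell, where 9.87% of all genes were called higher and 8.98% lower, so the counts are near the background. Under median centring 2 were called higher and 3 lower. Over all probe sets that setting called 730 higher and 3132 lower, against 1596 and 1344 without centring. Lower calls thus grew commoner, and higher calls rarer, over the whole array. The list had a median log2 change of 0.18 against 0.06 over all genes, or -0.02 against -0.14 after median centring. Apc2, which encodes the APC relative most abundant in the nervous system, rose furthest. Its brighter probe set read 419.7, 471 and 484 on the R271W arrays and 202, 229 and 257 on the control arrays (log2 change 1.00, SE 0.109, limma adjusted p = 4.59e-05). This probe set has the suffix that Affymetrix gives where some probes may match other transcripts. The second, without that suffix, read 125, 144 and 147 on the R271W arrays and 39.8, 50.3 and 47.2 on the control arrays (log2 change 1.61, adjusted p = 4.02e-05). The R271W arrays were above the control arrays in both, and the call of the brighter one was kept under all 15 alternatives.

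Csnk1e encodes casein kinase 1 epsilon, a kinase of the Wnt pathway. Its brightest probe set rose to 207, 188 and 199 on the R271W arrays, against 145, 112 and 123 on the control arrays (log2 change 0.65, adjusted p = 0.0038). Its dimmer probe sets read -0.04 and 0.25 with overlapping groups (adjusted p = 0.904 and 0.567), so the gene's probe sets disagree. Apc, which encodes the scaffold of the destruction complex, read 374, 379 and 294 on the R271W arrays and 291, 259 and 263 on the control arrays. Its log2 change of 0.36 passed narrowly (adjusted p = 0.0484) and remained called in 4 of the 15 alternatives, with adjusted p from 0.00729 to 0.365. The lost calls include leaving out R271W replicate 1 (0.146) or 2 (0.174) and any of control replicates 1, 2 and 3 (0.0593, 0.139 and 0.13). Another tested Apc probe set read 0.03 with overlapping groups (adjusted p = 0.951).

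**Figure D4:**
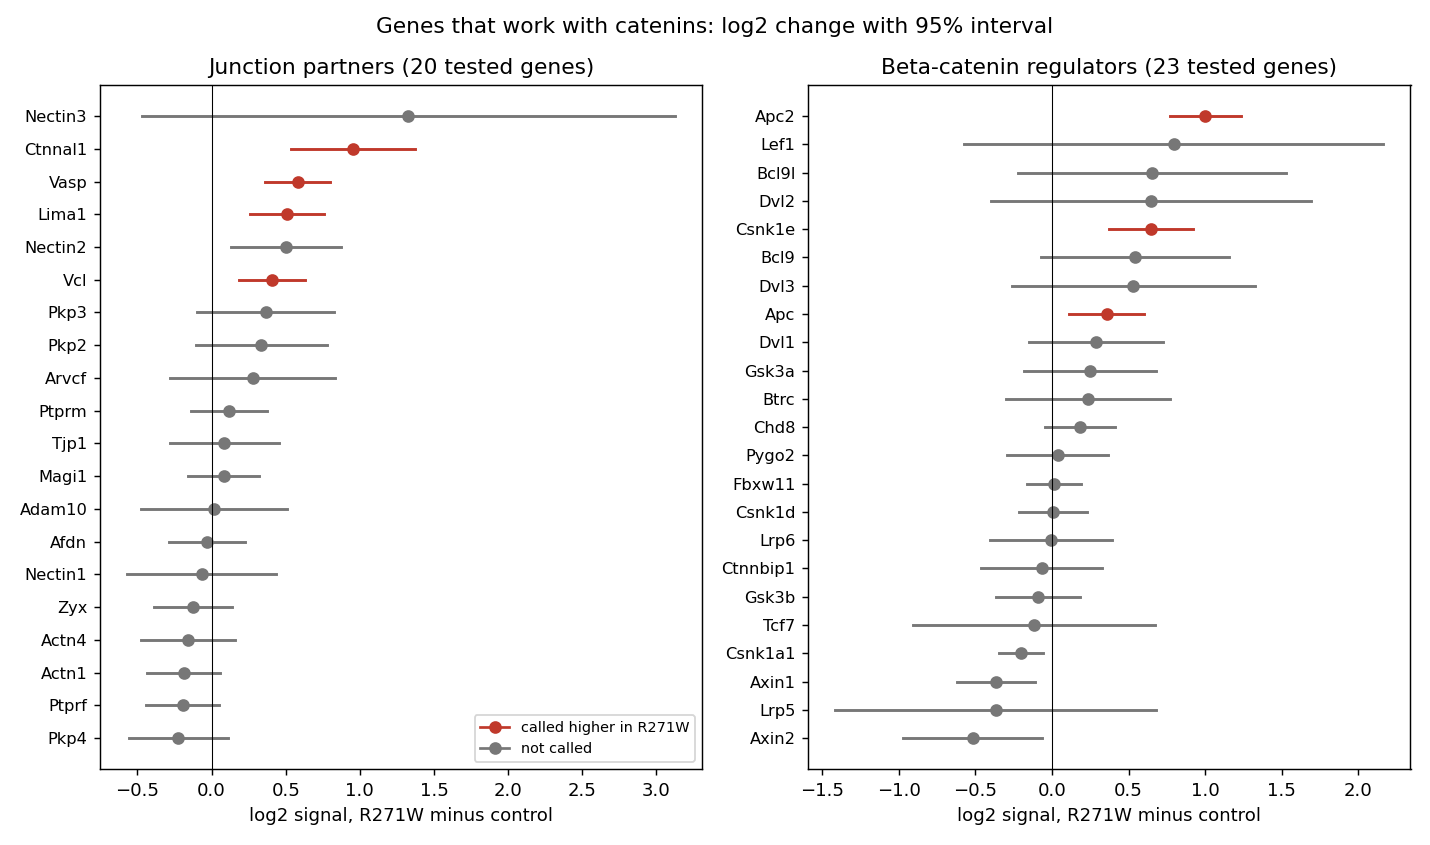
Log2 change, R271W minus control, with 95% intervals for the 20 tested junction genes (left) and 23 tested genes that control beta-catenin (right), 1 probe set a gene, sorted by value. Called genes, 4 on the left and 3 on the right, are red and all higher in R271W cells; the rest are grey.

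Some genes of this list lay just outside the threshold on the lower side. Axin1, the axin scaffold gene, read 213, 172 and 221 on the R271W arrays and 242, 269 and 266 on the control arrays (log2 change -0.37, adjusted p = 0.0517). Csnk1a1 encodes the kinase that primes beta-catenin for breakdown. Its brightest probe set read 1026, 1001 and 1027 on the R271W arrays and 1158, 1182 and 1177 on the control arrays (log2 change -0.20, adjusted p = 0.0556). In these probe sets of Axin1 and Csnk1a1 the R271W arrays were below the control arrays without overlap. Median centring called both lower, with adjusted p of 0.00423 for Axin1 and 0.00154 for Csnk1a1. Both were also called lower under 75th percentile centring (0.0225 and 0.0161), with a filter at the 60th percentile (0.0332 and 0.0383) and with array weights (0.0311 and 0.0446). Axin1 alone was called lower under quantile normalization (0.0479), with an offset added (0.0483) and without R271W replicate 3 (0.0337). In the remaining alternatives neither gene was called. The dimmer tested Csnk1a1 probe sets read -0.09, -0.27 and -0.20 with overlapping groups (adjusted p = 0.553, 0.498 and 0.714). Under median centring the first of these passed the threshold (-0.29, adjusted p = 0.0415), and the others did not (0.204 and 0.395). These 2 genes, and the Wnt targets given below, are named after their values were seen.

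Of 20 target genes of canonical Wnt signalling 6 were tested, and 0 rose and 0 fell by the limma fit. With 9.87% of all genes called higher and 8.98% lower, 0 of 6 is near the background. Their median log2 change was -0.10, against 0.06 over all genes. Axin2, the target read most often as a measure of Wnt activity, read 57.0, 40.3 and 46.9 on the R271W arrays and 69.5, 75.8 and 60.2 on the control arrays. The groups did not overlap, but the log2 change of -0.52 was not called (adjusted p = 0.116), nor was that of Myc (-0.57, adjusted p = 0.0751). With median centring or quantile normalization both were called lower (Axin2 0.0237 and 0.0482, Myc 0.0158 and 0.0498). Other tested targets went up or hardly moved, and none was called. The dim Wif1 read 16.1, 18.8 and 16.0 on the R271W arrays and 9.62, 11.3 and 9.46 on the control arrays. Its groups did not overlap (log2 change 0.75, adjusted p = 0.381). Groups overlapped for Lef1 (0.80, adjusted p = 0.448), Tcf7 (-0.12, adjusted p = 0.873) and Znrf3 (-0.09, adjusted p = 0.798). Ccnd1, Lgr5 and Nkd1 were among the 8 targets with a probe set below the filter.

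The gene LRRTM1, which encodes a synaptic adhesion protein, lies inside the span of Ctnna2 in the GRCr8 annotation and was the only such nested gene of the set with a probe set. It read 7.25, 0.521 and 0.495 on the R271W arrays and 14.3, 15.1 and 12.4 on the control arrays. All R271W signals were below the control signals, but the probe set was under the filter and was not tested. It was looked up after the values of Ctnna2 were seen.

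The genes with the profile most like that of Ctnna2 were found among 10142 others by the root mean square difference of log2 signals over the 6 arrays, each centred on its own mean. The closest were Igfbp3, a binding protein gene for insulin-like growth factors (difference 0.169), and P4ha2, a collagen prolyl hydroxylase subunit gene (0.176). Slc12a8, a solute carrier gene (0.185), Mmd, a membrane protein gene (0.2), and Bst2, which encodes tetherin, an interferon-induced protein that holds enveloped virus particles at the cell surface (0.202), came next. Their log2 changes were -1.68, -1.31, -1.25, -1.53 and -1.25. They were chosen for this likeness, so the agreement is a description, and with 2 groups it rests mainly on the difference between them.

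**Figure D5:**
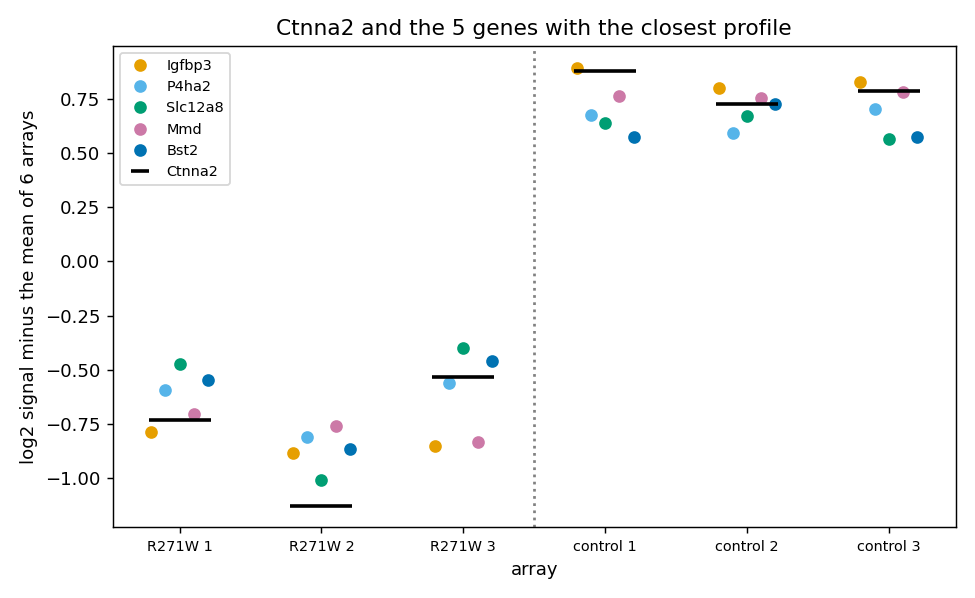
Log2 signal minus the mean of the 6 arrays, by array, for Ctnna2 (black bars) and the 5 genes with the smallest difference from it (coloured points). All lie below 0 on the R271W arrays and above 0 on the control arrays, and Ctnna2 is the lowest of the 6 genes on R271W replicate 2.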

How the data were processed

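The deposited values are intensity values, linear MAS5 signals with 1 value for each probe set. MAS5 was the authors' method, per the submitters' processing notes; the sources used here do not give its version, background settings or detection calls. After trimming 2% at each end, every array's deposited signals averaged 100.0. Symbols came from the platform annotation, updated by Entrez ID through RefSeq's GRCr8 gene table: 20826 of 31042 non-control probe sets had 1 symbol, 436 several and 9780 none here.

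After a log2 transformation with no added scaling, group differences were fitted across the array in R 4.3.3 by limma 3.58.1 (lmFit; eBayes, trend on; two-sided) and adjusted by Benjamini-Hochberg. Outside the member set, each gene stands by its brightest probe set. Within groups, the SD of log2 signal had a median of 0.109 over the 4925 probe sets reaching a signal of 200.0, against 0.285 over the dimmer 13700. The fit was also tested on simulated data.

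Members and lists were chosen with earlier results of these data known. Named were every member, the called genes of each list (up to 6 a direction), and the 5 genes most like Ctnna2. Deviations from the group mean on same-numbered arrays correlated by -0.00165, 0.0101 and -0.0201, so replicate numbers were not used as pairs. Plots were made in Python 3.11.15 (matplotlib 3.10.9).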

Additional observations from a re-analysis of the deposited data

How the results depend on the processing

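The 15 alternatives were other scalings, filters, moderation, array weights, a replicate block, an offset of 3.72 (the 20th percentile of all signals) added before log2, and leaving out each array. Over 17 named log2 changes they gave 255 values, of which 226 kept direction and side of the threshold, 19 lost a call, 4 gained one and 6 changed sign without being called. With the replicate block, 1 member was called higher and 1 lower, and it ended 1 call, that of Apc (adjusted p = 0.0554). The sign changes were those of Ctnna1 under median (-0.13) and 75th percentile centring (-0.0126) and, under median centring, of Ctnnb1 (-0.0331, -0.0538 and -0.10) and Cdh2 (-0.0645). Over all probe sets, 730 were called higher and 3132 lower under median centring and 634 and 431 without the intensity trend; leaving out an array gave 1000 to 1346 higher and 945 to 1327 lower. Members called higher were 4 under quantile normalization, 0 without the trend and 1 to 2 with an array left out. Junction partners called higher were 2 under median centring and 2 without the trend, with 2 lower (Ptprf and Actn1) under median centring. Genes that control beta-catenin called lower were 2 under quantile normalization, 3 under median centring, 2 under 75th percentile centring, 2 with a filter at the 60th percentile, 1 with the offset, 2 with array weights and 0 to 1 with an array left out. Wnt targets called lower were 2 under quantile normalization, 2 under median centring, 1 under 75th percentile centring, 1 with array weights and 0 to 1 with an array left out, and 1 (Wif1) was called higher without the trend. The cause of these shifts was not tested, apart from centring, which lowers every log2 change by construction. Signals below the filter limit what can be said of Cdh1 and Cdh13.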
